A study of Mus musculus with 2 samples.

Results

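The interferon-inducible GTPases described here are 7 of the 32285 genes in the files, namely Irgm1, Irgm2, Igtp, Iigp1, Gbp2, Gbp3 and Gbp7. They were matched by gene symbol, and all 7 were found and passed the minimum level used for comparisons. The genes were selected on measured values, because their levels differed between the 2 libraries of the study in earlier results of these data. The library difference is therefore given as a description of the genes, with no test, and supports nothing by itself.

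The study measured RNA in single cells of vein grafts, veins placed into the arterial circulation, from C57BL6/J mice of 10 to 12 weeks. One library was made from conventional grafts and 1 from No-Touch grafts, a technique in which the vein is moved with its surrounding tissue. Both libraries came from enzymatically digested grafts, sorted for live cells that lack CD45 on their surface, the antigen of leukocytes, and captured in droplets. With 1 library per group there is no replicate, so no p-value is given, and animal, batch, capture and graft type cannot be told apart. The number of animals per library and which of 2 kit versions served which library are not given in the sources used here.

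Interferons are secreted proteins that bind receptors on neighbouring cells, and the receptors' kinases phosphorylate STAT proteins, which bind DNA with or without IRF factors. Among the strongly induced mouse genes are GTPases that bind membranes around intracellular microbes and damaged organelles. Irgm1, Irgm2 and Igtp (also called Irgm3) are the regulatory immunity-related GTPases, which hold the effector type inactive on the cell's own membranes, and Iigp1 (also called Irga6) is an effector. Gbp2, Gbp3 and Gbp7 are guanylate-binding proteins, larger GTPases that assemble on vacuoles and bacteria. Endothelial cells and fibroblasts are known to express both families when interferon gamma is present.

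The promoters of the members are shown as a description. The members belong to families known as interferon-inducible, so finding interferon elements in them is no independent support for the selection. Of the 7 members, 6 were matched to RefSeq promoters (GRCm38.p6, 250 bases before to 50 after the start), and Iigp1 was not matched. Each line below gives 60 bases, 5′ to 3′ on the strand of the gene, ending at or upstream of the start site. Capitals mark the matches to the interferon-stimulated response element, searched as GAAA, any 2 bases and GAAA on both strands, so that TTTC, any 2 bases and TTTC is the same element on the opposite strand.
Irgm1, chr11:48871421-48871480, minus strand: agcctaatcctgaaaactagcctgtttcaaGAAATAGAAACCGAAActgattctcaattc
Irgm2, chr11:58214888-58214947, plus strand: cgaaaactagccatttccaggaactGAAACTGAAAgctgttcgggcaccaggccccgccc
Igtp, chr11:58199496-58199555, plus strand: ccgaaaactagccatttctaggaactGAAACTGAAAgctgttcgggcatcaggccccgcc
Gbp2, chr3:142620579-142620638, plus strand: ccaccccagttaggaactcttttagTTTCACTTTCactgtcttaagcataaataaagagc
Gbp3, chr3:142559977-142560036, plus strand: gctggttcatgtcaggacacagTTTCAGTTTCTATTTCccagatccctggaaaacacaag
Gbp7, chr3:142530258-142530317, plus strand: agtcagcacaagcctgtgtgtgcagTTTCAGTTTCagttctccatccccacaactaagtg

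All 6 members held the element in at least 1 promoter, against 1074 of 26994 genes with a RefSeq promoter (3.98%). The table gives 7 promoters for the 6 members, because Gbp3 has 2, and the other Gbp3 promoter did not hold it, so that 85.7% of the members' promoters did, against 3.43% of all promoters. Irgm1 and Gbp3 each held 2 overlapping matches, and the first match of every member lay between 64 and 30 bases upstream of the start. The Irgm2 and Igtp windows were identical at 57 of 59 aligned bases, whereas the 3 Gbp windows matched each other at 24 to 26 of 51 to 57 bases. A second element, the gamma-activated site searched as TTCNNNGAA on both strands, was found in Irgm2, Igtp and Gbp7, that is 3 of 6 members against 9.55% of all genes. Gbp7 held 2 such matches. A match is a string of letters in this window and is no evidence that a factor bound there.

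The members lie in 2 gene families at several loci, so shared sequence at their transcript ends was checked. On mm10, Irgm1 (chromosome 11, 48861968 to 48871683, minus strand) stands apart from the annotated overlapping pair Igtp (chromosome 11, 58199556 to 58207591) and Irgm2 (chromosome 11, 58199618 to 58222782), both on the plus strand. Gbp7 (chromosome 3, 142530342 to 142550149), Gbp3 (chromosome 3, 142560026 to 142573209) and Gbp2 (chromosome 3, 142620602 to 142638008) follow each other on the plus strand. Because the assay reads the ends of transcripts, stretches of 90 bases in the last 500 bases of each transcript were compared with those of all other genes. None was shared for 6 members, and 6 of 1334 stretches of Gbp3 were shared with Gbp7. How reads within the annotated overlap of Igtp and Irgm2 were counted, or whether they were lost, was not tested. The end stretches of these 2 genes were not shared.

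After filtering, 9462 conventional and 10377 No-Touch cells were kept, with medians of 16229 and 27403 UMIs per cell (unique molecular identifiers, each counting 1 captured RNA molecule). Cells were assigned to classes by marker genes, and 5 classes held at least 100 cells in both libraries: fibroblast-like (5908 conventional and 8009 No-Touch cells), mural-like (1065 and 715), blood endothelial-like (806 and 397), lymphatic endothelial-like (324 and 292) and Schwann-like (182 and 306). Their own markers were among the 10 leading genes of each class. Ptprc, which encodes CD45, and markers of leukocytes were low in these classes, while some leukocytes had passed the sort, including 441 and 97 neutrophil-like, 55 and 122 mononuclear phagocyte-like and 7 and 153 T or NK-like cells. The 2 libraries shared 22 cell barcodes. Xist, the RNA of the inactive X chromosome in female cells, was at 164 counts per 1000000 UMIs (CPM) over all conventional cells and 0.11 CPM over all No-Touch cells, and Y-linked genes were found in both. The conventional library thus held cells of female and of male mice, and the No-Touch library cells with the male pattern. The comparison of graft types is therefore also a comparison of differently composed sets of animals, and values that separate these cells are given further on.

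Levels in CPM are the UMIs of a gene summed over a class and library, per 1000000 UMIs of all genes there. Because the assay counts transcript ends, the value does not grow with transcript length. Intervals are exact at 95% and cover counting error only, not differences between animals.

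Irgm1 had the largest ratio between the libraries in all 5 classes, while the difference in CPM was largest for Iigp1. In fibroblast-like cells its conventional level was 19.2 CPM (18.47 to 19.97) and its No-Touch level 105.9 CPM (104.7 to 107.1). In mural-like cells it was at 30.1 and 109.0 CPM, and in blood endothelial-like cells at 40.7 and 152.0 CPM. Every No-Touch value was above every conventional value of these 5 classes. In lymphatic endothelial-like cells the levels were 22.7 and 117.8 CPM, and in Schwann-like cells, the highest class, 56.2 CPM (45.0 to 69.3) and 320.4 CPM (301.6 to 340.1). The No-Touch level was 5.51 times the conventional level in fibroblast-like, 3.63 times in mural-like, 3.74 times in blood endothelial-like, 5.19 times in lymphatic endothelial-like and 5.71 times in Schwann-like cells. As log2 ratios with 1 CPM added to both levels these were 2.40, 1.82, 1.88, 2.33 and 2.49, which placed Irgm1 between percentiles 98.5 and 99.9 of the genes compared in each class. In the No-Touch library Schwann-like cells were followed by blood endothelial-like cells, and below them the intervals of mural-like cells (103.3 to 115.0) overlapped those of both lymphatic endothelial-like (107.4 to 129.0) and fibroblast-like cells.

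Irgm2 and Igtp, the other regulatory GTPases, differed less. Irgm2 was at 39.4 and 80.1 CPM in fibroblast-like, 49.0 and 72.7 CPM in mural-like, 69.3 and 101.5 CPM in blood endothelial-like, 33.1 and 78.1 CPM in lymphatic endothelial-like and 80.7 and 193.8 CPM in Schwann-like cells. The No-Touch value was the higher in each class, and its ratio was between 1.46 in blood endothelial-like and 2.40 in Schwann-like cells. Igtp was at 48.5 and 80.3 CPM in fibroblast-like, 67.6 and 91.2 CPM in mural-like, 200.5 and 272.4 CPM in blood endothelial-like, 56.3 and 126.9 CPM in lymphatic endothelial-like and 131.7 and 349.4 CPM in Schwann-like cells. In the conventional library blood endothelial-like cells had the highest Igtp level, and in the No-Touch library Schwann-like cells did. The ratio of Igtp was between 1.35 in mural-like and 2.65 in Schwann-like cells.

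Iigp1, the effector, was the most abundant member in every compared class of both libraries. It was at 296.4 and 954.8 CPM in fibroblast-like, 706.2 and 1298.4 CPM in mural-like, 1077.5 and 2212.9 CPM in blood endothelial-like, 243.0 and 908.9 CPM in lymphatic endothelial-like and 262.1 and 619.8 CPM in Schwann-like cells. Blood endothelial-like and then mural-like cells were highest in both libraries. Schwann-like cells, which led for Irgm1, Irgm2 and Igtp in the No-Touch library, were the lowest of the 5 classes for Iigp1 there. In the conventional library the intervals of Schwann-like (237.2 to 288.9) and lymphatic endothelial-like cells (228.1 to 258.7) overlapped, so the order of these 2 was not settled. The No-Touch level of Iigp1 was 3.22 times the conventional level in fibroblast-like, 1.84 times in mural-like, 2.05 times in blood endothelial-like, 3.74 times in lymphatic endothelial-like and 2.36 times in Schwann-like cells.

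Among the guanylate-binding proteins, Gbp2 and Gbp7 had the smallest ratios of all members in 4 classes, and Gbp7 and Gbp3 in blood endothelial-like cells. Gbp2 was at 175.3 and 191.2 CPM in fibroblast-like, 182.5 and 194.0 CPM in mural-like, 336.7 and 445.6 CPM in blood endothelial-like, 142.9 and 236.1 CPM in lymphatic endothelial-like and 195.6 and 313.6 CPM in Schwann-like cells. The mural-like ratio of 1.06 had a counting interval of 1.00 to 1.13. Gbp7 was at 71.7 and 104.2 CPM in fibroblast-like, 107.6 and 118.0 CPM in mural-like, 258.8 and 259.8 CPM in blood endothelial-like, 120.9 and 234.4 CPM in lymphatic endothelial-like and 192.4 and 294.6 CPM in Schwann-like cells. In blood endothelial-like cells the Gbp7 ratio of 1.00 had an interval of 0.95 to 1.06, so no difference was detectable there. Gbp3 was at 45.3 and 73.1 CPM in fibroblast-like, 50.5 and 61.2 CPM in mural-like, 123.8 and 149.9 CPM in blood endothelial-like, 41.2 and 113.3 CPM in lymphatic endothelial-like and 93.0 and 176.1 CPM in Schwann-like cells. Gbp3 was at least 1.5 times higher in the No-Touch library in 3 classes, fibroblast-like, lymphatic endothelial-like and Schwann-like.

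**Figure D1:**
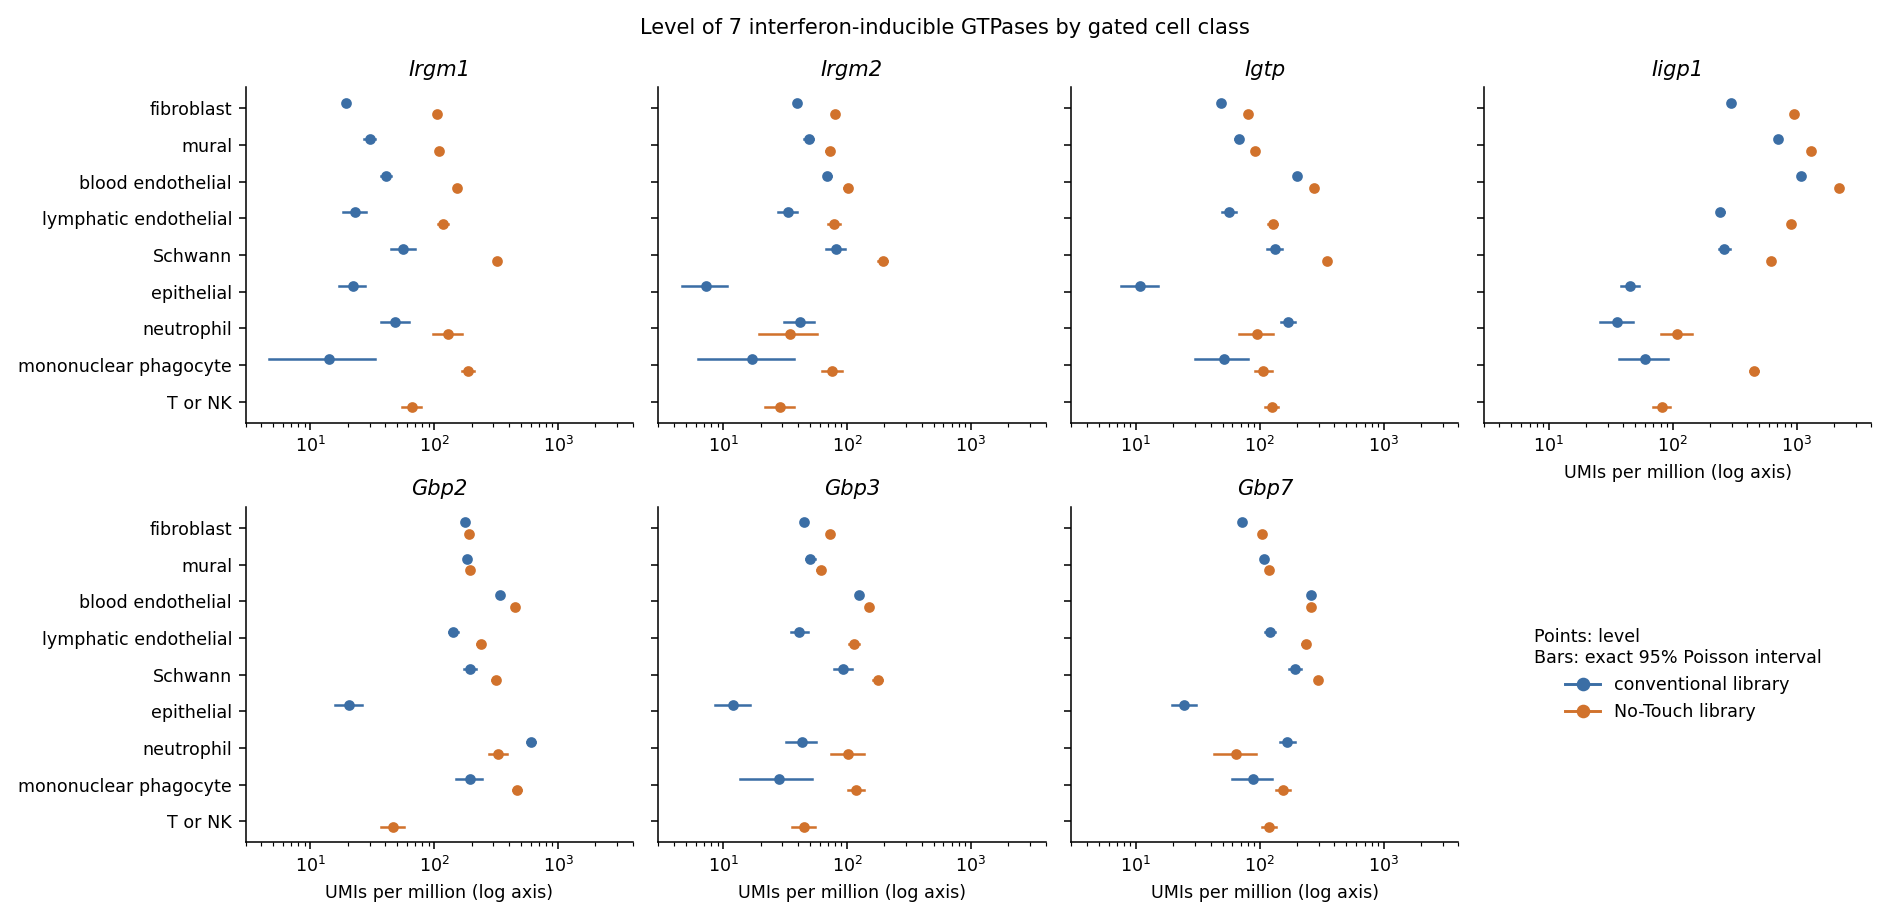
Level of each member in CPM (horizontal log axis) by marker-gated cell class (vertical axis), with blue points for the conventional and orange points for the No-Touch library and bars for exact 95% Poisson intervals; T or NK-like conventional cells (7 cells) and epithelial-like No-Touch cells (31 cells) are not drawn. In fibroblast-like cells the Irgm1 points lie at 19.2 and 105.9, the widest gap of the members there on this axis, while Gbp2 and Gbp7 points lie close together in mural-like cells.

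A member was counted as higher when its No-Touch level was at least 1.5 times the conventional level, with 1 CPM added to both, where a gene had to reach 10 CPM in at least 1 of the libraries. In fibroblast-like cells 5 of 7 members were higher and 0 lower, where 7.29% of 8434 genes were higher and 3.4% lower. Of 7 members 2 were higher in mural-like cells (all genes, 11.4% higher and 6.0% lower) and 2 in blood endothelial-like cells (13.6% and 6.65%), in both classes Irgm1 and Iigp1. In lymphatic endothelial-like cells 7 of 7 were higher (all genes, 9.56% and 6.4%), and in Schwann-like cells 7 of 7 (13.0% and 7.98%). The contrast chose the members, so these shares are read no further. The median log2 ratio over the 7 members was 0.72 in fibroblast-like, 0.43 in mural-like, 0.44 in blood endothelial-like, 1.22 in lymphatic endothelial-like and 1.24 in Schwann-like cells, beside medians of 0.00 to 0.08 over all genes compared. The order of the members was similar but not equal across classes, with Irgm1 first in all 5, Iigp1 next in 4 and Igtp next in Schwann-like cells.

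**Figure D2:**
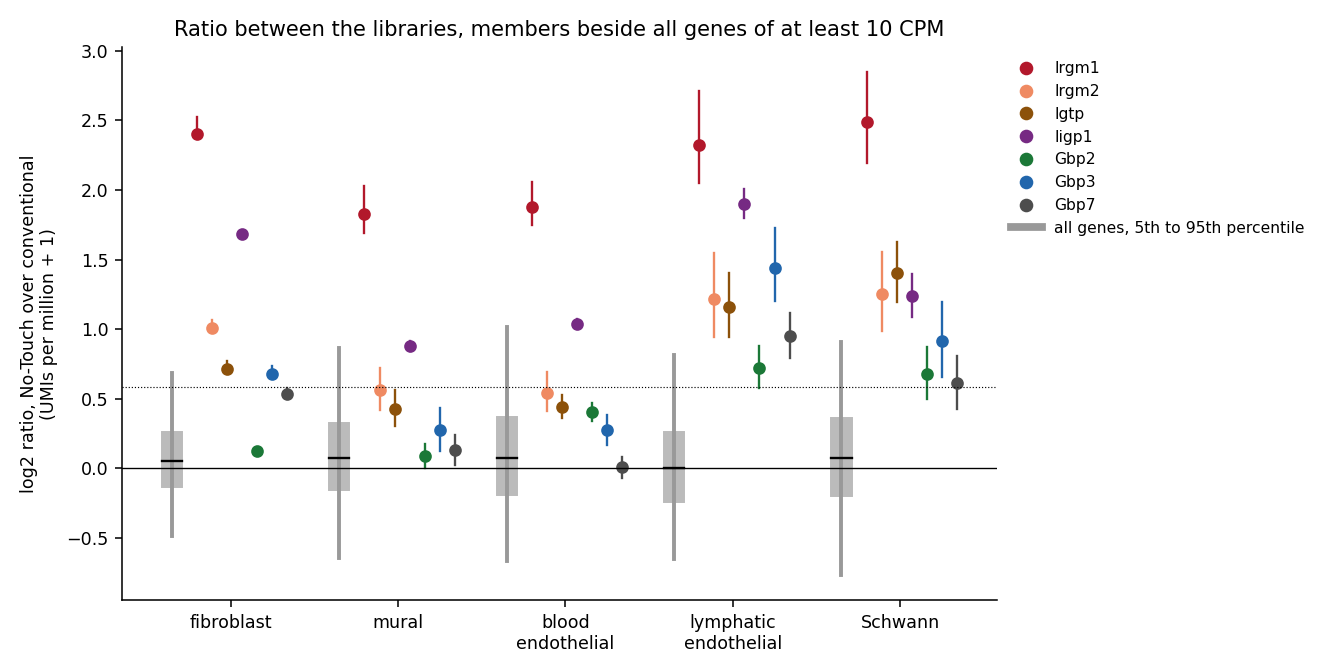
Log2 ratio of the No-Touch over the conventional level (vertical axis, 1 CPM added to both) of each member in the 5 compared classes (horizontal axis), with exact 95% counting intervals of the ratio without the added CPM; grey bars span the 5th to 95th percentile of all genes of at least 10 CPM, boxes the quartiles and black lines the median, and the dotted line is a 1.5-fold ratio. Irgm1 lies above the grey bar in every class and Gbp7 at 0.01 in blood endothelial-like cells.

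Single cells were compared after each was thinned to 3000 UMIs, because the No-Touch cells had more UMIs per cell. The share of fibroblast-like cells with a UMI of any member was 65.4% (64.2 to 66.7, exact Clopper-Pearson interval) in the conventional and 85.4% (84.6 to 86.2) in the No-Touch library. In lymphatic endothelial-like cells the shares were 61.5% and 88.1%, and in Schwann-like cells 71.8% and 93.0%. In blood endothelial-like cells they were 87.1% and 94.9%. In mural-like cells they were 76.1% (73.4 to 78.7) and 77.4% (74.1 to 80.4), a difference not detectable at this depth. Without thinning the shares were 95.8% and 99.4% in fibroblast-like, 93.1% and 96.6% in mural-like, 96.2% and 99.7% in blood endothelial-like, 86.7% and 99.0% in lymphatic endothelial-like and 82.4% and 98.4% in Schwann-like cells. The lowest share was in epithelial-like cells of the conventional library, 25.8% (19.2 to 33.3) after thinning, at a median of 18292 UMIs before it, near the 19829.5 UMIs of conventional fibroblast-like cells. Every thinned share above is higher than that one. Pth, the gene of parathyroid hormone, and Chga led these conventional cells, and the No-Touch epithelial-like cells were too few for this check. In the No-Touch library the epithelial-like share was 61.3% (42.2 to 78.2, 31 cells), and its interval lies below the No-Touch shares of the compared classes other than mural-like cells, while it spans the conventional shares of fibroblast-like, mural-like, lymphatic endothelial-like and Schwann-like cells.

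Several members were often seen in the same cell. After thinning, at least 3 of the 7 were detected in 15.04% of conventional and 35.2% of No-Touch fibroblast-like cells, 26.5% and 33.6% of mural-like, 47.3% and 60.3% of blood endothelial-like, 14.7% and 44.8% of lymphatic endothelial-like and 21.8% and 54.1% of Schwann-like cells. All 7 were detected in at most 4.67% of cells, in Schwann-like cells of the No-Touch library. Irgm1 alone was detected in 5.86% of conventional and 24.5% of No-Touch fibroblast-like cells, and Iigp1 in 34.6% and 65.0%. Gbp2 had shares of 32.3% and 34.0% in the same cells. In conventional fibroblast-like cells the 10% of cells with most member UMIs held 47.5% of them, and in the No-Touch library 37.4%.

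**Figure D3:**
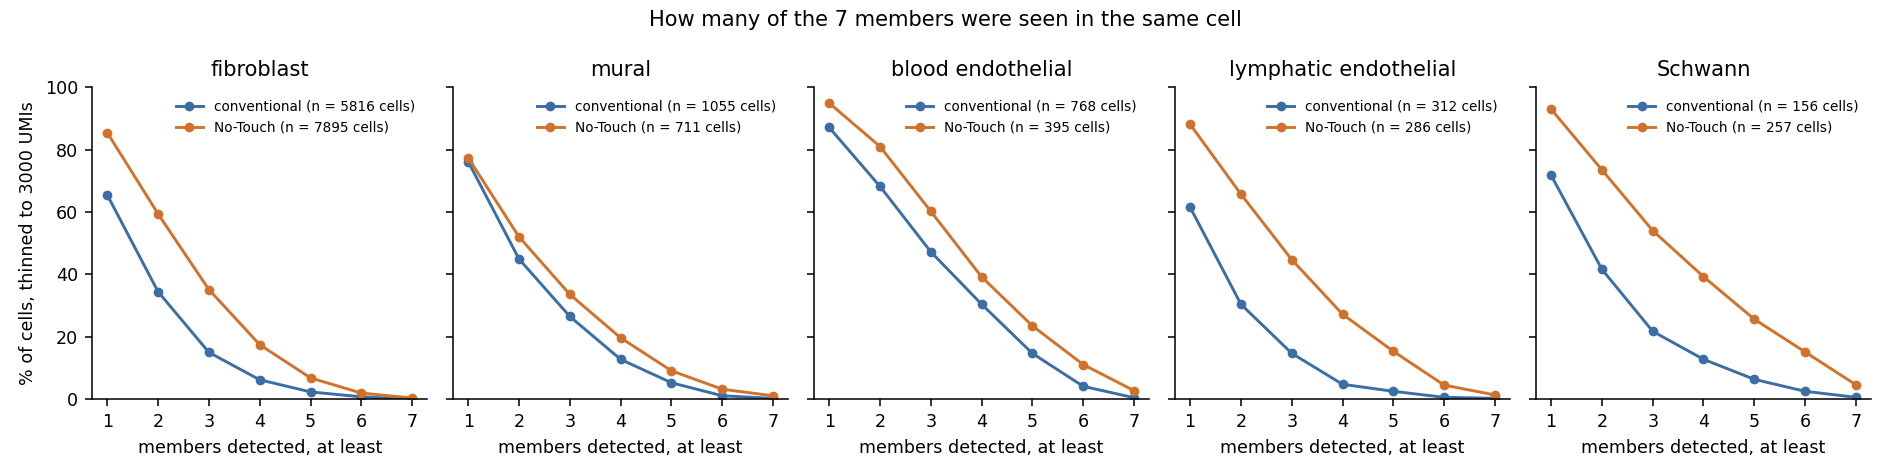
Share of cells (vertical axis, %) in which at least the given number of the 7 members (horizontal axis) had a UMI, each cell thinned to 3000 UMIs, for the conventional (blue) and No-Touch (orange) library; n is the number of cells thinned. At 3 or more members the curves are 15.04% and 35.2% in fibroblast-like cells and lie closest together in mural-like cells.

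Cells that carried RNA of another interferon-induced gene also carried more member UMIs, within each library. Among thinned fibroblast-like cells with a UMI of Cxcl9, a chemokine induced by interferon gamma, the mean number of member UMIs was 4.47, against 1.63 in those without it, in the conventional library. In the No-Touch library the means were 8.23 and 4.03. In mural-like cells the means with and without Cxcl9 were 7.58 and 2.60 in the conventional and 14.6 and 4.62 in the No-Touch library. With Isg15, a ubiquitin-like protein induced by type I interferon, the fibroblast-like means were 3.68 and 1.78 in the conventional and 6.81 and 3.58 in the No-Touch library. The pattern did not hold everywhere, since No-Touch lymphatic endothelial-like cells with Cxcl9 (26 cells) had a mean of 4.54 and those without it 5.73. Cells of 1 library are not replicates, and these means describe the cells only.

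Clusters made without the members and without the interferon lists were used to compare more similar cells. Sex-chromosome genes were not left out. Cluster 10, led by Edn1 and Xist, held 1232 conventional and 67 No-Touch cells, so its cells may differ in sex between the libraries. In 8 fibroblast clusters with at least 50 cells in both libraries, accounting for 47.0% of the conventional and 97.9% of the No-Touch fibroblast-like cells, Irgm1, Irgm2 and Iigp1 were each at least 1.5 times higher in the No-Touch library in 8 of 8. Igtp and Gbp3 were in 6 of 8, and Gbp2 and Gbp7 in 1 of 8. The summed level of the 7 members ran from 384.7 CPM in the conventional and 577.9 CPM in the No-Touch library in cluster 4, led by Crabp2, Aqp1 and S100a4, to 1324.7 and 2428.3 CPM in cluster 6, led by Igkc, Cxcl10 and Jchain. Cluster 7, led by Fmo2, Gdf10 and Inmt, had the widest difference, 494.8 and 1871.4 CPM. Igkc and Jchain are antibody genes of plasma cells, and Cxcl10 is itself interferon-induced, so cluster 6 is not separated from interferon-induced genes or free RNA, whose part was not tested.

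**Figure D4:**
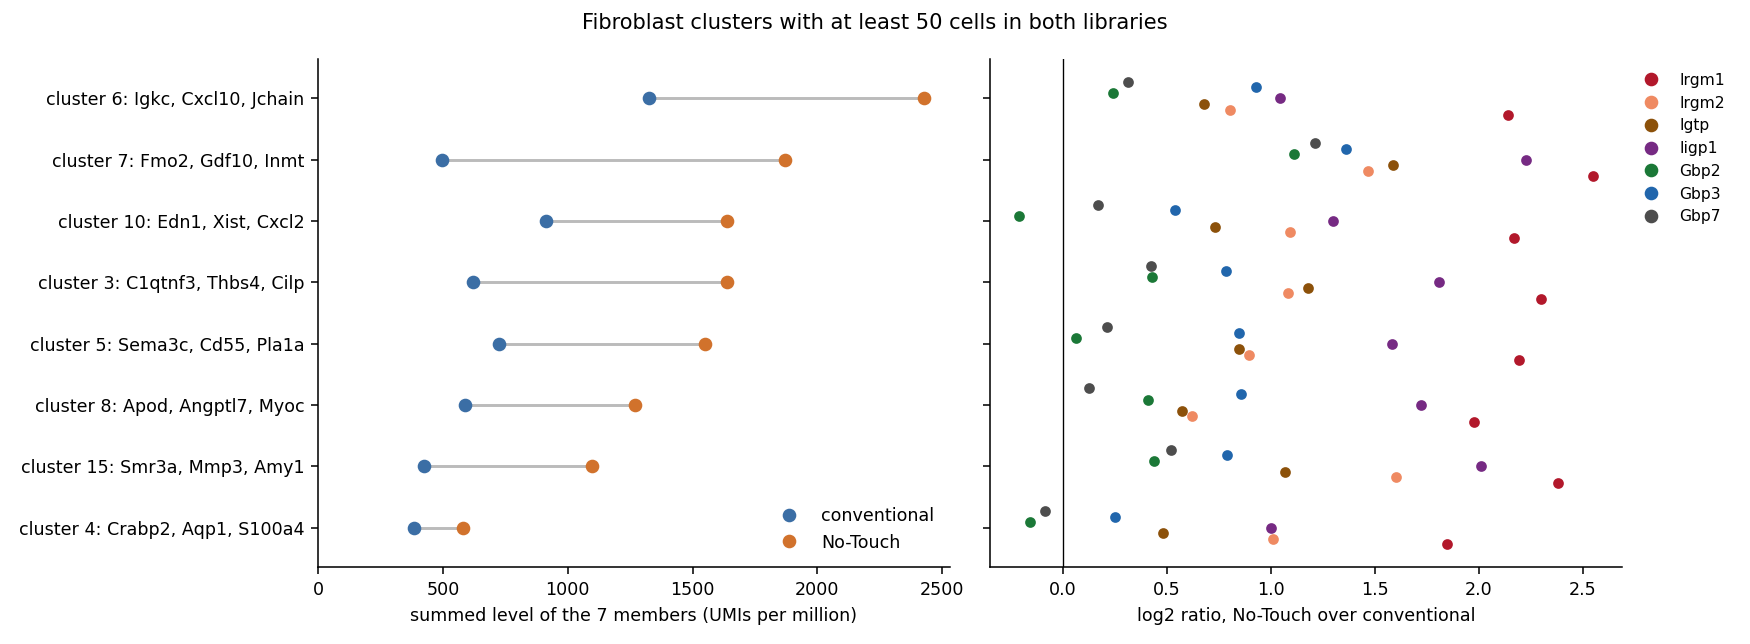
Left, summed level of the 7 members (CPM) in the conventional (blue) and No-Touch (orange) library in each of 8 fibroblast clusters, named by number and 3 leading genes; right, log2 ratio of each member in the same clusters. The summed level was higher in the No-Touch library in 8 of 8 clusters, and Gbp2 and Gbp7 have the points nearest to or below 0.

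Mural-like cells held 2 such clusters, which differed from each other. In cluster 9, led by Procr, Ccl11 and Adamts4 (914 conventional and 450 No-Touch cells), the summed level was 1397.8 CPM in the conventional and 3017.6 CPM in the No-Touch library. In cluster 16, led by Npnt, Itga8 and Itih4 (109 and 226 cells), it was 510.6 and 484.1 CPM. Irgm1 was higher in both clusters (33.4 and 153.8 CPM in cluster 9, 20.7 and 41.5 CPM in cluster 16), whereas Gbp2 was 201.0 and 288.3 CPM in cluster 9 and 125.5 and 69.5 CPM in cluster 16. The difference between the 2 clusters was not tested. The No-Touch library held more cells of cluster 16, so the ratios over all mural-like cells mix the 2 clusters in unequal shares. The log2 ratio of the summed level was 1.11 within cluster 9 and -0.08 within cluster 16. With the 2 clusters weighted equally, more members were counted as higher in mural-like cells, as given with the other processing settings at the end. The cause of the difference between the 2 clusters was not tested.

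Cells of the conventional library were split by sex-chromosome transcripts, a split chosen after seeing the data that the choice of members did not use. Cells with at least 2 Xist UMIs and none from 4 Y-linked genes come from at least 1 female mouse, and cells with a Y-linked UMI and no Xist UMI from at least 1 male. The conventional library held 1674 cells of the former kind and 5518 of the latter, with 861 others carrying RNA of both, while the No-Touch library held 0 of 10377, which allows a share of up to 0.0289%, and 9648. In fibroblast-like cells Irgm1 was at 12.8 CPM in conventional Xist cells, 21.3 CPM in conventional Y-linked cells and 105.6 CPM in No-Touch Y-linked cells. Igtp was at 30.8, 52.9 and 80.2 CPM in the same order, and Gbp2 at 161.1, 181.5 and 190.6 CPM. The conventional cells of both kinds were thus below the No-Touch cells for all 3 genes.

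The split gives the only view of how animals within a graft type may differ, although sex, animal and cell state cannot be told apart in it. Fibroblast cluster 10, led by Edn1 and Xist, held 1232 conventional and 67 No-Touch cells. The log2 ratio of Y-linked over Xist cells within the conventional library was 0.69 for Irgm1 and 0.76 for Igtp in fibroblast-like cells, and 0.00 and -0.17 in mural-like cells. The widest values were 0.96 for Gbp2 in lymphatic endothelial-like cells and -0.74 for Gbp2 in Schwann-like cells. For Gbp2 these were larger in size than the library difference in both classes (0.72 and 0.68). The same held in fibroblast-like cells for Igtp (0.76 within the conventional library, 0.72 between libraries) and Gbp2 (0.17 and 0.12), in blood endothelial-like cells for Gbp3 (0.50 and 0.27) and Gbp7 (0.52 and 0.01), and in mural-like cells for Gbp3 (0.33 and 0.27). Between Y-linked cells of the 2 libraries the log2 ratio of Irgm1 was 2.26 in fibroblast-like, 1.78 in mural-like, 1.81 in blood endothelial-like, 2.23 in lymphatic endothelial-like and 2.43 in Schwann-like cells. For Iigp1 it was 1.59, 0.90, 1.02, 1.61 and 1.48 in the same classes. For Gbp7 it was 0.48, 0.13, -0.14, 0.68 and 0.37. With female cells left out the ratios of Irgm1 were thus close to those of all cells (2.40, 1.82, 1.88, 2.33 and 2.49). That of Iigp1 in lymphatic endothelial-like cells went from 1.90 to 1.61, and those of Gbp7 in lymphatic endothelial-like and Schwann-like cells from 0.95 and 0.61 to the values above. That of Gbp2 in lymphatic endothelial-like cells went from 0.72 to 0.45, which is below 1.5 times. Some ratios rose, such as that of Iigp1 in Schwann-like cells, from 1.24 to 1.48.

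The rest of the pathway was described by lists chosen with earlier results of these data known. Counts are set beside the shares of all genes that were higher. These were 7.29% in fibroblast-like, 11.4% in mural-like, 13.6% in blood endothelial-like, 9.56% in lymphatic endothelial-like and 13.0% in Schwann-like cells. The shares of all genes that were lower were 3.4%, 6.0%, 6.65%, 6.4% and 7.98% in the same order. Of 8 interferon ligands none reached 10 CPM in a compared class. Ifng, which encodes interferon gamma, had 20 UMIs in the conventional and 247 UMIs in the No-Touch library. Of these, 14 and 200 UMIs were in T or NK-like cells, in 4 of 7 cells and 61 of 153 cells. The sort removed most leukocytes, so these numbers do not measure how many such cells the grafts held. Ifnb1, which encodes interferon beta, had 9 and 4 UMIs.

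Receptors and their kinases were not higher in any class. Of 6 tested genes in fibroblast-like cells 0 were higher or lower, with Ifngr1 (named after its values were seen), a subunit of the interferon gamma receptor, at 99.7 and 93.7 CPM. In mural-like cells 2 of 6 were lower, Ifnar1 (39.5 and 25.8 CPM) and Ifnar2 (180.02 and 112.8 CPM), the subunits of the type I receptor. In blood endothelial-like cells 1 of 6 was lower, again Ifnar1 (122.7 and 64.6 CPM). In lymphatic endothelial-like and Schwann-like cells 0 of 7 were higher or lower.

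Transcription factors differed among themselves. Of 8 tested, 2 were higher in fibroblast-like, 1 in mural-like, 2 in blood endothelial-like, 4 in lymphatic endothelial-like and 5 in Schwann-like cells. With so few genes, the mural-like and blood endothelial-like counts are not read as different from the shares over all genes (11.4% and 13.6%). Stat2, a STAT protein, and Irf9, an IRF factor that binds DNA with STAT proteins, were at 52.4 and 99.8 CPM and at 41.7 and 71.3 CPM in fibroblast-like cells. Irf1, named after its values were seen, is an early factor of the interferon gamma response and was at 1279.5 and 1359.6 CPM in the same cells. Irf8, also named after its values were seen, was lower in mural-like cells (207.7 and 90.8 CPM), blood endothelial-like cells (217.1 and 98.3 CPM) and lymphatic endothelial-like cells (188.5 and 112.3 CPM), the 1 factor lower in each.

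Inhibitors of the pathway differed in each class. Of 5 tested, 3 were higher and 0 lower in each of the 5 classes. Socs1, which blocks the receptor kinases, was at 53.6 and 155.9 CPM in fibroblast-like, 28.3 and 56.8 CPM in mural-like, 13.2 and 32.1 CPM in blood endothelial-like, 16.5 and 40.9 CPM in lymphatic endothelial-like and 9.04 and 24.9 CPM in Schwann-like cells. Socs3, a related inhibitor that other cytokines also induce, was at 655.8 and 1346.9 CPM in fibroblast-like and 403.2 and 657.2 CPM in lymphatic endothelial-like cells.

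Other interferon-inducible GTPases were described from a list of 22, of which 17 were in the files and the others are not analysed here. Of those tested, 3 of 11 were higher in fibroblast-like, 3 of 10 in mural-like, 4 of 13 in blood endothelial-like, 10 of 13 in lymphatic endothelial-like and 6 of 10 in Schwann-like cells, and 1 was lower in mural-like and 1 in lymphatic endothelial-like cells, in both Irgq. Whether each listed gene, Irgq among them, is induced by interferon was not tested here. The Irgq values are therefore not read as those of an induced GTPase. Tgtp2, a relative of Iigp1, was higher in all 5 classes, at 12.2 and 46.5 CPM in fibroblast-like and 25.8 and 136 CPM in Schwann-like cells. Tgtp2 and Tgtp1 are near-identical copies, so reads may have been split between them or lost. Gbp5, named after its values were seen, was at 73.8 and 75.5 CPM in fibroblast-like and 111.7 and 108.2 CPM in Schwann-like cells.

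Other interferon-induced genes served as comparators. Of those tested, 14 of 18 were higher in fibroblast-like, 6 of 16 in mural-like, 6 of 18 in blood endothelial-like, 16 of 18 in lymphatic endothelial-like and 12 of 16 in Schwann-like cells. Isg15 was at 127.6 and 430.4 CPM in fibroblast-like cells. Cxcl9 was lower in mural-like (597.6 and 272.6 CPM) and lymphatic endothelial-like cells (127.3 and 39.2 CPM), where Irgm1 was higher. In blood endothelial-like cells it was at 760.4 and 532.8 CPM, short of 1.5 times. In that class 2 comparators, Rsad2 (227.5 and 72.9 CPM) and Ifit2 (53.7 and 31.8 CPM), were lower, and in Schwann-like cells 1, Rsad2 (38.1 and 13.9 CPM), all named after their values were seen.

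The ATG8-conjugation genes, which attach ubiquitin-like proteins to membranes and are needed to load these GTPases on vacuoles, stayed within 1.5 times in both directions. Of 10 tested, 0 were higher and 0 lower in each of the 5 classes, and their median log2 ratio was between -0.02 and 0.09.

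**Figure D5:**
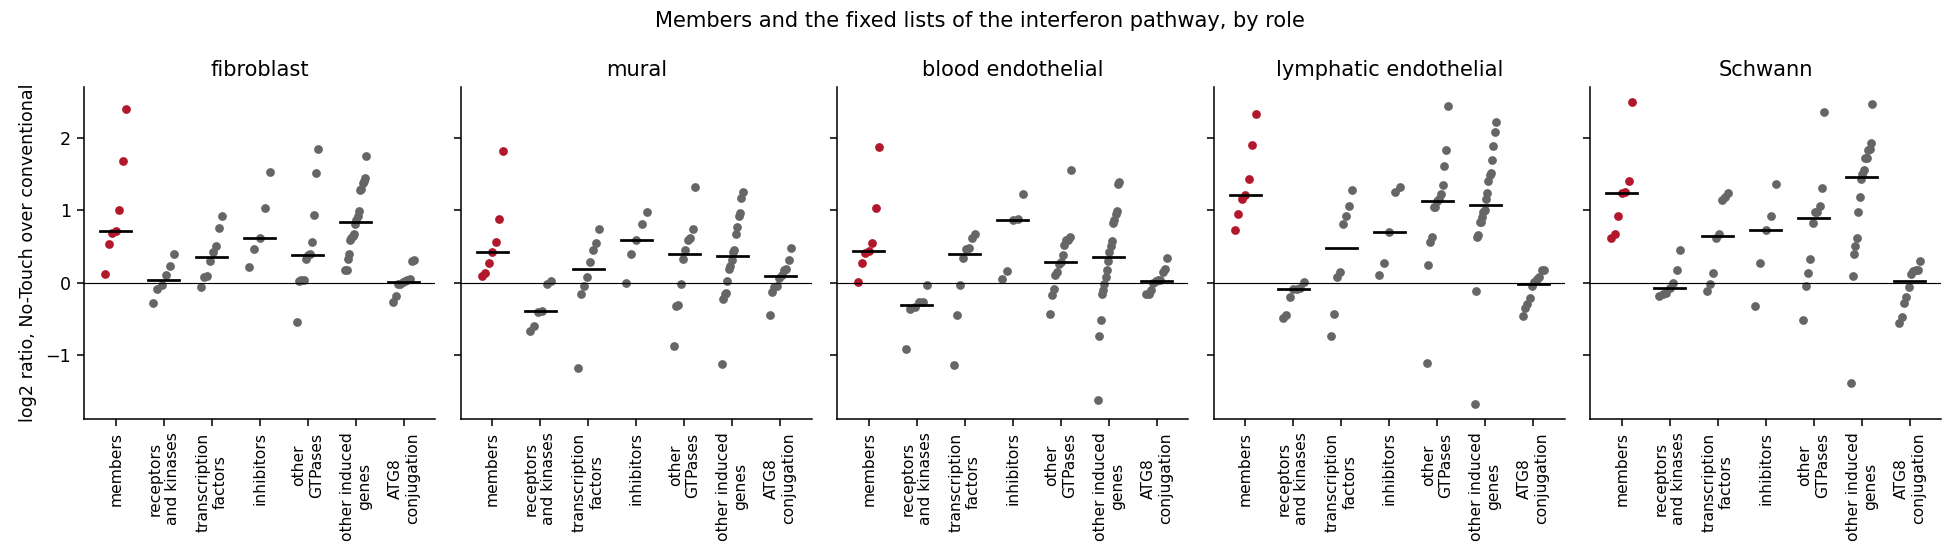
Log2 ratio of the No-Touch over the conventional level (vertical axis) of the members (red) and of the tested genes of 6 lists of the interferon pathway (grey, ordered by value within a list), by class; black lines are medians. Medians of the ATG8-conjugation genes lie between -0.02 and 0.09, and those of the inhibitors and other induced genes above them in every class.

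Across the 16 class and library pairs with at least 50 cells, the members did not follow each other equally. Pearson's r of log2(CPM + 1) was 0.92 for Igtp and Gbp7 and 0.91 for Irgm2 and Gbp3, and lowest for Iigp1 and Gbp2 at 0.39. Irgm2 and Igtp, which share most of the printed promoter window, had an r of 0.84. Among 10583 other genes, the 10 most like the mean of the members were Socs3 (r of 0.87), Arrdc3, Ifi47 (0.84), B2m, Trappc2, Spop, Col15a1, Uba7, Gbp6 and Ttc7b (0.81). These values are descriptions, since pairs of 1 library share its depth and free RNA.

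Leukocytes and epithelial cells that passed the sort were too few for the comparison and are given as values. In mononuclear phagocyte-like cells Irgm1 had 5 UMIs in 55 conventional cells (14.2 CPM, 4.6 to 33.0) and 293 UMIs in 122 No-Touch cells (186.6 CPM, 165.8 to 209.2). In neutrophil-like cells Gbp2 was the highest member, with a conventional level of 607.4 CPM (564.7 to 652.5) and a No-Touch level of 325.7 CPM (274.2 to 384.1), the opposite order from the 5 compared classes. Igtp and Gbp7 were also lower there in the No-Touch library, at 169.3 and 94.7 CPM and at 166.0 and 64.7 CPM. Irgm2 was at 41.3 and 34.7 CPM, with an interval of its ratio (0.44 to 1.52) that spans 1. Irgm1 was at 48.6 and 129.4 CPM in neutrophil-like cells, Iigp1 at 35.6 and 108.6 CPM and Gbp3 at 42.9 and 101.6 CPM. Each had the same order there as in the 5 compared classes. In epithelial-like cells the summed level of the members was 142.4 CPM in the conventional and 925.9 CPM in the No-Touch library. The conventional cells were led by Pth, the gene of parathyroid hormone, and Chga. The 31 No-Touch cells were too few for this check, so the cells compared may be unlike. Dcn, a fibroblast gene, was in them at 4.43% and 16.5% of its fibroblast-like level, and its part was not tested.

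Free RNA and traces of other cells moved with the libraries. Dcn, a fibroblast gene, was in other classes at 2.94% to 12.0% of its fibroblast-like level in the conventional and 8.82% to 26.5% in the No-Touch library. In blood endothelial-like cells the 11 fibroblast markers summed to 2101.7 and 6238.3 CPM, and all 11 were higher in the No-Touch library. The 9 T or NK markers summed to 4.94 and 5.69 CPM in fibroblast-like cells, with Ncr1 at 0 in the conventional library, and to 0.53 and 6.85 CPM in blood endothelial-like cells, with Cd3e, Cd3d, Cd3g and Ncr1 at 0 in the conventional library. They summed to 0.65 and 9.19 CPM in Schwann-like, 0.74 and 5.53 CPM in lymphatic endothelial-like and 26.0 and 32.8 CPM in mural-like cells. The fibroblast markers summed to 5473.5 and 10826.0 CPM in Schwann-like, 3825.1 and 6472.4 CPM in lymphatic endothelial-like and 8097.1 and 12116.6 CPM in mural-like cells. The 5 B cell markers summed to 5.62 and 22.3 CPM in fibroblast-like cells. The 9 mononuclear phagocyte markers summed to 12.6 and 15.2 CPM in fibroblast-like and to 11.7 and 8.62 CPM in blood endothelial-like cells. The part of free RNA and of other cells in the differences was not tested.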

How the data were processed

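The deposited files hold counts, whole numbers of UMIs for each gene in each barcode, which per the submitters' processing notes the authors made with Cell Ranger 3.1.0 on mm10; per the file headers Cell Ranger 6.0.0 wrote the matrices, and this was not settled. Barcodes entered with 500 genes or more, 1000 UMIs or more and a mitochondrial share of 10% or less. The 9.52% and 9.96% with the highest Scrublet scores were removed as doublets, at 0.8% per 1000 barcodes. Cells were classed by marker genes at 1 or more UMIs per 10000 (fibroblast markers 3); the numbers required were set after marker distributions were seen. Scanpy 1.11.5 made clusters from 2000 variable genes, 30 components and 15 neighbours. UMIs were summed per class and library. The ratio script was tested on simulated data. Members, lists and markers were chosen with earlier results of these data known. Named list genes are up to 4 per list and class with the largest ratios at 20 CPM or more; list genes outside this rule, such as Irgq, Cxcl9, Isg15, Socs3 or Irf8 in some classes, were named after their values were seen. The depth was 172130596 and 319512673 UMIs in kept cells, and precision is counting error only. Alternatives covered scaling, pseudocount, minimum level, fold, thinning, doublets, mitochondrial limit, gating, clusters, the highest cells and Y-linked cells.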

Additional observations from a re-analysis of the deposited data

Results flagged for a closer look

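In neutrophil-like cells 3 members were lower by at least 1.5 times in the No-Touch library and higher by as much in other classes. Their log2 ratio of the No-Touch over the conventional level was -0.83 for Igtp, higher in 4 other classes, -0.90 for Gbp2, higher in 3, and -1.35 for Gbp7, higher in 3. Irgm2 was also below 0 there, at -0.25, with an interval of its ratio (0.44 to 1.52) that spans 1. Irgm1, Iigp1 and Gbp3 were above 0 in these cells, at 1.39, 1.58 and 1.22. The difference between classes was not tested. These cells had passed a sort meant to remove them, numbered 441 and 97, and had medians of 2656 and 4304 UMIs.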

How the results depend on the processing

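Under 14 other settings, 2 of them chosen after seeing the data (a fold of 2, and Y-linked cells only), 279 of 385 recomputed single-gene ratios stayed within their counting interval, and 0 ratios of at least 1.5-fold changed sign. The number of members higher stayed within 1.5 times except as follows. With clusters weighted equally 4 were higher in mural-like cells, against 2. At a fold of 2 the numbers were 3 in fibroblast-like, 1 in mural-like and 4 in Schwann-like cells. With Y-linked cells only the numbers stayed within 1.5 times in every class. They were 5, 3, 2, 6 and 6 in fibroblast-like, mural-like, blood endothelial-like, lymphatic endothelial-like and Schwann-like cells. Gbp7 in blood endothelial-like cells was below 0 in 8 of 12 settings (-0.14 to 0.02) and Gbp2 in mural-like cells in 3 of 12 (-0.04 to 0.26). Shares of cells with a member moved with the depth and with the cells kept: thinned to 10000 UMIs, which kept 60 of 182 conventional Schwann-like, 520 of 1065 mural-like and 174 of 324 lymphatic endothelial-like cells, the conventional and No-Touch shares were 90.4% and 98.1% in fibroblast-like, 90% and 93.2% in mural-like, 97.7% and 99.7% in blood endothelial-like, 88.5% and 98.6% in lymphatic endothelial-like and 96.7% and 99.3% in Schwann-like cells, and not thinned they were 95.8% and 99.4%, 93.1% and 96.6%, 96.2% and 99.7%, 86.7% and 99.0%, and 82.4% and 98.4%. The cause was not tested. No paired analysis was possible because each group has 1 library.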
